A study of Mus musculus with 6 samples.

Results

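The mitochondrial protein import machinery was described here as the 34 genes, of 23404 in the table, whose symbols belong to the TIM and TOM families (Timm and Tomm followed by a digit), Samm50 and Pam16, or are Grpel1, Hspa9, Hspd1, Hspe1, Pmpca, Pmpcb, Chchd4 and Dnajc19. Messenger RNA came from C57BL/6J mouse cells labelled cardiomyocytes, sorted on 2 optical signals, their own fluorescence in the FITC channel and forward scatter (FSC), which rises with the size of a particle. The gate FITChigh/FSCdim, here FITChigh, took bright events of low scatter, and the gate FITCdim/FSChigh, here FITCdim, took the reverse. Each gave 3 libraries, called biological replicates by the submitters. No genotype, transgene, drug, age or time was given for either gate, nor whether animals were pooled. The series title gives the aim as an isolation of ventricular cardiomyocytes, and the comparison of the gates asks how their RNA differed.

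Nearly all mitochondrial proteins are encoded in the nucleus, made on cytosolic ribosomes and carried into the organelle. Precursors cross the outer membrane through the TOM complex. From there they are handed to the SAM complex for beta-barrel proteins, to small TIM chaperones and the TIM22 carrier translocase, or to the TIM23 translocase and its Hsp70 motor, which pull presequence proteins into the matrix. There the presequence is removed and the Hsp60 and Hsp10 chaperonins help the protein to fold. Heart muscle is packed with mitochondria, which supply most of its ATP.

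Levels are adjusted read counts, the deposited values, which were scaled by the authors to a common library size. Depth ran from 1589823 to 2931048 reads per FITChigh library and from 1705625 to 3345997 per FITCdim library, as recovered from the values. Totals of the adjusted values still differed, at 2333473 to 2443707 in FITChigh and 2030583 to 2112872 in FITCdim. Of the cardiomyocyte markers 14 of 14 were detected, and their summed level was 442233 to 473477 in FITChigh and 289896 to 343521 in FITCdim. Of these 14 markers 1 was called higher in FITChigh by the test described next and 0 lower. Summed markers of other cells were lower in FITChigh, at 581 to 853 against 4147 to 4553 for 8 endothelial genes, 44.3 to 68.1 against 360 to 699 for 7 fibroblast genes and 50.2 to 71.8 against 237 to 520 for 6 leukocyte genes. The same held for 5 mural genes (348 to 462 against 794 to 1075) and 5 atrial genes (201 to 443 against 1138 to 2453). Of the genes tested in these lists, 8 of 8 endothelial, 6 of 6 fibroblast, 4 of 4 leukocyte, 4 of 5 mural and 5 of 5 atrial genes were called lower, and no marker stood at 0 in all libraries. Their part in the differences below was not tested. In such bulk samples fewer cells of a type and less RNA per cell cannot be told apart.

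Promoter sequence is shown for the chaperonin pair, which shares 1 site, for Timm44 and for Tomm20. Of these only Timm44, the called member with the largest difference, passed the test described below. Tomm20 is an import receptor whose mean difference had the other sign. Hspa9 and Pmpcb, which were also called, are not shown. Promoter windows of RefSeq (GRCm38.p6, from 250 bases before to 50 after a transcript start) were matched to 30 of the 34 members. The members Hspa9, Timm21, Tomm40l and Tomm7 had no match used here. The Timm44 and Tomm20 stretches lie before the start and outside exons of GENCODE M21. For the chaperonin pair only the site is given, since an exon of 1 Hspd1 transcript covers the region. The site lies 89 bases before the start of Hspe1 and 144 bases before 1 of the Hspd1 starts, and downstream of another Hspd1 start. Capitals mark motif matches.
Hspe1 and Hspd1, chr1:55088059-55088076, strand of Hspe1: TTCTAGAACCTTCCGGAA
Timm44, chr8:4275914-4276155, minus strand: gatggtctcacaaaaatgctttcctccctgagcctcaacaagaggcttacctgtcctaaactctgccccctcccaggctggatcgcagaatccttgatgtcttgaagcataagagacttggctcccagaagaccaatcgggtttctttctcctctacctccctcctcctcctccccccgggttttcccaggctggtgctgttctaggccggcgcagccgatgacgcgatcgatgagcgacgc
Tomm20, chr8:126945922-126946171, minus strand: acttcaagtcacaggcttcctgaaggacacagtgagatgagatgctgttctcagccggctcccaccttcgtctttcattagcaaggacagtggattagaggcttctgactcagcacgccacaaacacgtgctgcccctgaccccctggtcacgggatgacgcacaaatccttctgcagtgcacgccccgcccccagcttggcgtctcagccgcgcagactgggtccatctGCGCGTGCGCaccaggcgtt
The capitals of the chaperonin site are overlapping matches on both strands of the heat shock element, searched as TTC, 2 free bases, GAA, 2 free bases and TTC, and those in the Tomm20 promoter are GCGCGTGCGC, a match of GCGC, 1 free base and TGCGC, the core of the motif of NRF1, a transcription factor known for driving nuclear genes of mitochondria. The Timm44 stretch holds no match, while its window holds ACATGGCGGC from base 17 after the start, a match of the YY1 letters, searched as A, 1 free base, ATGG and CGGC.

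Motifs were counted on both strands over whole windows, beside the share of all 27025 genes with a window. The heat shock element was in 3 of 30 members (10%, against 0.662% of all genes), namely Hspd1 and Hspe1, whose windows overlap, and Timm9. This motif was chosen after the sequence around the chaperonin starts had been seen. The NRF1 core was in 5 members (16.7% against 5.19%), which were Chchd4, Hspd1, Pam16, Timm8b and Tomm20. The letters CCGGAAGT of ETS factors were in 6 (20% against 4.31%), namely Pmpcb, Timm10, Timm10b, Timm23, Timm8a2 and Tomm70a. The YY1 letters were in 4 (13.3% against 1.41%), namely Pmpcb, Samm50, Timm44 and Timm50, and in each of them the match lay after the start. The motif TNAAGGTCA of ERR receptors was in Timm8b alone (3.33% against 1.43%). A match describes letters and is no evidence of binding.

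Most import genes had a higher mean in FITChigh on the scale of the deposited values, and few passed the test described next. Scaled to the cardiomyocyte markers, most had a lower mean. Of the 34 members 32 passed the filter on low values (at least 1 adjusted read count in at least 3 libraries) and were tested with limma across 12907 genes. In FITChigh 3 were called higher at an adjusted p under 0.05, 0 were called lower and 29 did not pass. Those called were Timm44 and Hspa9 of the import motor and Pmpcb, the catalytic subunit of the presequence protease. Over all genes 2.51% were called higher and 13.5% lower. The 3 members make up 9.38% of those tested, and with so few calls this share is given as a description. In an alternative fit, libraries of equal replicate number were paired as a replicate block, a pairing that the labels do not give. It called 11 members higher (named at the end) and 0 lower, against 8.24 and 16% of all genes. The mean difference was positive in 29 of the 32, with a median log2 difference of 0.33 and a range of -0.20 to 0.81, beside a median of -0.01 over all genes tested. The 3 values of FITChigh all lay above those of FITCdim in 11 of the 32 members, against 1473 of the 12907 genes tested (11.4%). In no member did they all lie below, against 2609 of the 12907 genes tested.

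**Figure D1:**
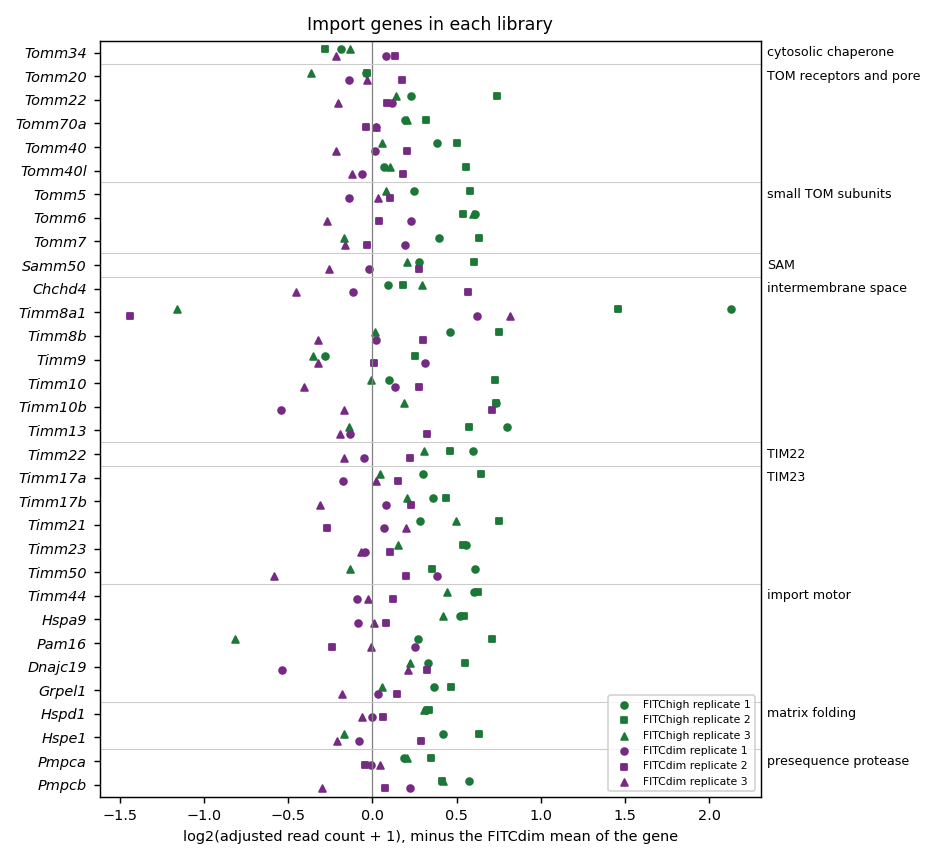
Level of each tested import gene in each of the 6 libraries, as log2(adjusted read count + 1) minus the mean of the 3 FITCdim libraries, with genes grouped by role. FITChigh points (green) lie to the right of all FITCdim points (purple) in 11 of 32 genes, among them Timm44, Hspa9 and Pmpcb, while Tomm34, Tomm20 and Timm9 have lower means in FITChigh, all on the scale of the deposited values; scaled to cardiomyocyte markers, 28 of 32 are lower.

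The direction depends on what the libraries are scaled to. With values as deposited the median log2 difference of the members was 0.33, after scaling all libraries to 1 common total it was 0.12, and with each library rescaled to the sum of the 14 cardiomyocyte markers it was -0.20. With the common total 0 members were called, where 0.317% of all genes were called higher and 16.9% lower. With the markers 28 of 32 members had a lower mean and 4 a higher one, and 2 were called lower, where 36.5% of all genes were. Those 2 were Tomm20 at -0.67 (limma, adjusted p = 0.012) and Tomm34 at -0.72 (adjusted p = 0.015). The median over all genes moved to -0.20 with the common total and to -0.51 with the cardiomyocyte markers, and it was 0.13 after quantile normalization. The median of the members stood above that of all genes by 0.33 as deposited, 0.32 with the common total, 0.31 with cardiomyocyte markers and 0.18 after quantile normalization. Scaling by 1 factor per library shifts all genes nearly alike, so the common total and the markers could hardly change this distance. Of these scalings only quantile normalization could. Every difference below is on the scale of the deposited values, and each member called higher there lost its call under the common total and under the marker scaling. Summed over the 34 members, import genes took 0.381 to 0.430% of the adjusted read counts in FITChigh and 0.332 to 0.379% in FITCdim, without overlap. Per 1000 adjusted read counts of the cardiomyocyte markers there were 20.1 to 22.4 of the import genes in FITChigh and 20.4 to 25.1 in FITCdim, with overlap.

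**Figure D2:**
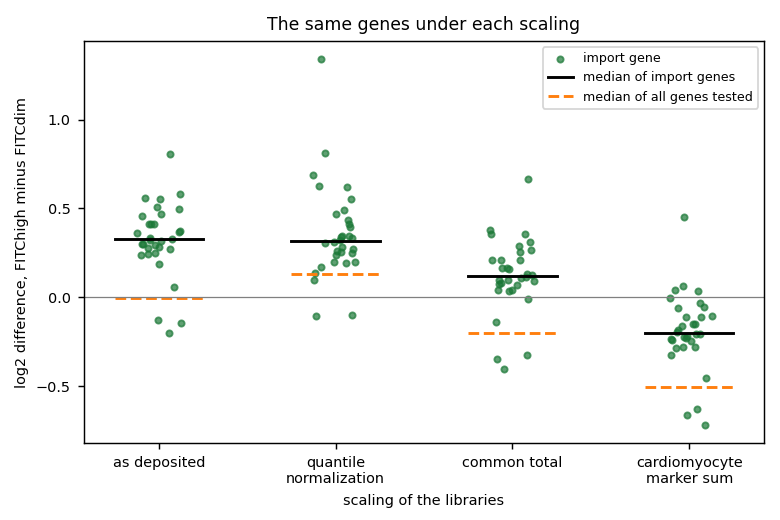
The log2 difference (FITChigh minus FITCdim) of each of the 32 tested import genes under 4 scalings of the libraries, with the median of the import genes (black line) and of all genes tested (dashed orange line). The import median falls from 0.33 as deposited to 0.12 with a common total and to -0.20 with the cardiomyocyte marker sum. It stays above the median of all genes in each case. The common total and the marker sum could hardly change this, since they shift all genes nearly alike.

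Per kilobase of exon the matrix proteins led the list in both gates. Hspa9 stood at 1114 ± 50.5 adjusted read counts per kb (SD, n = 3) in FITChigh and 791 ± 45.9 (SD, n = 3) in FITCdim. Hspd1 followed at 453 ± 4.39 and 363 ± 16.2 per kb (SD, n = 3 each), without overlap with the genes next to it in FITChigh. After it came Pmpcb, Hspe1 and Timm8b, at 344 ± 21.9, 307 ± 82.4 and 302 ± 75.5 per kb in FITChigh (SD, n = 3 each), whose order was within their spread. Timm44 stood at 205 ± 14.1 per kb (SD, n = 3) in FITChigh and 139 ± 10.8 (SD, n = 3) in FITCdim. In FITCdim the genes from Timm44 at 139 down to Samm50 at 92.9 per kb, with Tomm5, Timm23, Pmpca, Tomm40, Tomm7, Timm10 and Tomm22 between them, followed in small steps, and no order is read from them. At the low end were Timm10b, Timm9 and Timm8a1, at 8.12, 8.03 and 1.97 per kb in FITCdim. Tomm20 stood at 18.2 per kb in FITChigh and 20.1 in FITCdim, against 123 and 94.0 for Tomm22 and 43.7 and 36.9 for Tomm70a. The length used joins all annotated exons of a gene, whichever of them are in use in these cells.

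**Figure D3:**
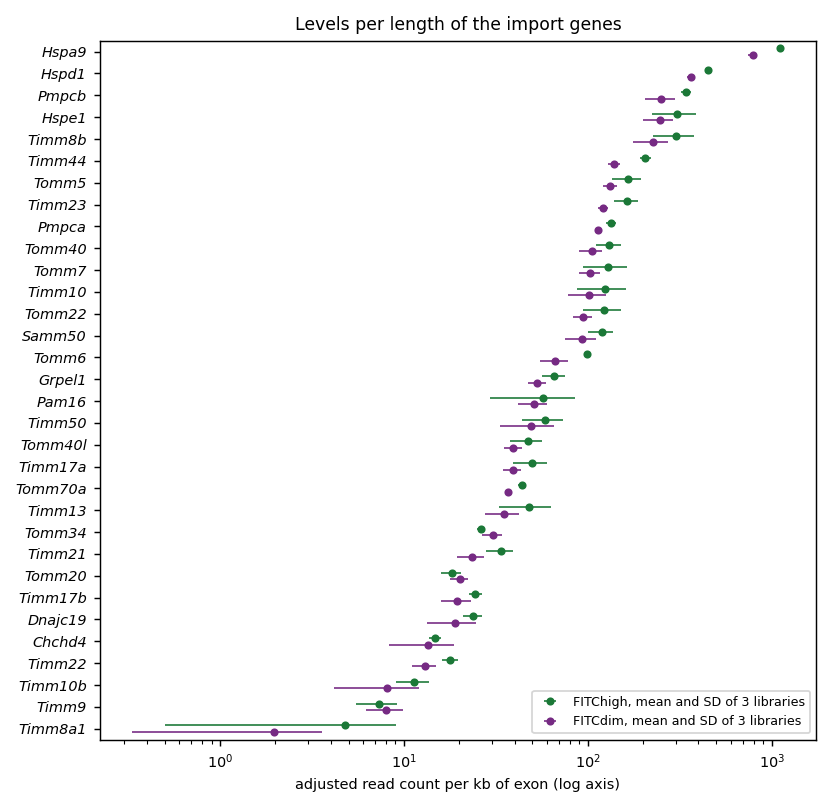
Mean adjusted read count per kilobase of annotated exon (log axis) in FITChigh (green) and FITCdim (purple), with bars of 1 SD over 3 libraries, for the 32 tested import genes ordered by their FITCdim level. Hspa9 is highest in both gates at 1114 and 791 per kb, and Timm8a1 lowest at 4.80 and 1.97.

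Among the members called, the largest difference was in the import motor. Timm44 (ENSMUSG00000002949, chromosome 8, 4259731 to 4275913 on the minus strand in mm10) encodes the inner membrane protein that ties the motor to the TIM23 channel. Its adjusted read counts were 379, 385 and 339 in the FITChigh libraries and 233, 271 and 244 in the FITCdim libraries. The lowest FITChigh value lay well above the highest FITCdim value. The log2 difference was 0.56 (SE 0.13), a 1.47-fold rise (limma, adjusted p = 0.0081). Hspa9, which encodes mortalin, the Hsp70 that does the pulling, had 3457, 3509 and 3220 adjusted read counts in FITChigh and 2266, 2545 and 2422 in FITCdim. All FITChigh values were above all FITCdim values, with a log2 difference of 0.49 (SE 0.13, 1.41-fold, adjusted p = 0.017). Hspa9 alone made up 33.4 to 36.3% of the summed adjusted read counts of the members in FITChigh and 31.1 to 34.5% in FITCdim, which overlap. Its call was lost without FITChigh replicate 1 (adjusted p = 0.076), without FITCdim replicate 1 (0.071) and after quantile normalization (0.28, at a log2 difference of 0.20), whereas that of Timm44 held without any 1 library.

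The other parts of the motor did not pass. Grpel1, the nucleotide exchange factor that recharges mortalin, stood at 241, 258 and 194 in FITChigh and 191, 206 and 165 in FITCdim, with a log2 difference of 0.30 (SE 0.15). Dnajc19, a J protein that starts the ATPase cycle, stood at 0.37 (SE 0.22). Pam16, its inhibitory partner, stood at 0.06 (SE 0.34), with 16.6 to 49.7 in FITChigh and 25.1 to 35.8 in FITCdim. Values of these 3 genes overlapped between the gates.

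Pmpcb (ENSMUSG00000029017, chromosome 5, 21737141 to 21757152 on the plus strand) encodes the zinc-binding subunit of the matrix protease that cuts off presequences. It had 597, 535 and 536 adjusted read counts in FITChigh and 468, 423 and 326 in FITCdim. The groups did not overlap, and the lowest FITCdim value came from replicate 3. The log2 difference was 0.47 (SE 0.15, 1.38-fold, adjusted p = 0.040). The call was lost in 5 of 6 fits that left out 1 library, with log2 differences of 0.32 to 0.51 and adjusted p from 0.051 to 0.18, the exception being the fit without FITCdim replicate 1, and after quantile normalization (adjusted p = 0.14). Its partner Pmpca, which recognises the presequence, had 450, 503 and 456 against 394, 384 and 408, also without overlap, and did not pass at 0.25 (SE 0.13, adjusted p = 0.22). The log2 ratio of Pmpca to Pmpcb differed by -0.22 between the gates (exact two-sided permutation p = 0.5). Its SD (n = 3 each) was 0.16 in FITChigh and 0.31 in FITCdim.

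The matrix chaperonins stood close together. Hspd1, which encodes Hsp60, had 1095, 1110 and 1089 adjusted read counts in FITChigh and 878, 919 and 841 in FITCdim. The FITChigh values lay within a narrow band above all FITCdim values, and the log2 difference of 0.32 (SE 0.12, 1.25-fold) did not pass (adjusted p = 0.087). Hspe1, which encodes its lid Hsp10, had 252, 293 and 168 against 178, 230 and 162, with overlap and a log2 difference of 0.30 (SE 0.20, adjusted p = 0.36). The log2 ratio of Hspd1 to Hspe1 was 2.24 ± 0.40 (SD, n = 3) in FITChigh and 2.22 ± 0.20 (SD, n = 3) in FITCdim, a difference of 0.03 (exact two-sided permutation p = 1). These are the head-to-head genes whose shared site was printed above. Their annotated first exons overlap on opposite strands. Among cytosolic chaperones, Dnaja1, an Hsp40, stood the other way, at -0.56 (SE 0.20), with an adjusted p = 0.072 that did not pass either.

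The TIM23 translocase carries presequence proteins across the inner membrane, and 0 of its 5 members passed, with differences of 0.28 to 0.51. The channel gene Timm23 had 209, 207 and 158 adjusted read counts in FITChigh and 138, 153 and 136 in FITCdim. The lowest FITChigh value was only just above the highest FITCdim value, and the log2 difference was 0.41 (SE 0.16, adjusted p = 0.090). It passed without FITChigh replicate 3 (0.55, adjusted p = 0.035) and with the replicate block (adjusted p = 0.020). Timm17a, with the most adjusted read counts of the 5 but fewer per kb than Timm23, had 349, 443 and 292 against 251, 315 and 287, with overlap and a difference of 0.33 (SE 0.16, adjusted p = 0.20). Its X-linked paralog Timm17b stood at 0.33 (SE 0.21) as well. The log2 ratio of Timm17a to Timm17b was 2.59 ± 0.19 (SD, n = 3) in FITChigh and 2.60 ± 0.30 (SD, n = 3) in FITCdim, a difference of -0.0025 (exact two-sided permutation p = 1). Timm21, which links TIM23 to TOM and to the respiratory chain, did not overlap between the gates at 68.6 to 95.4 against 46.3 to 64.8 (0.51, SE 0.20, adjusted p = 0.11). Timm50, the receptor that takes up presequences, overlapped at 0.28 (SE 0.25).

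**Figure D4:**
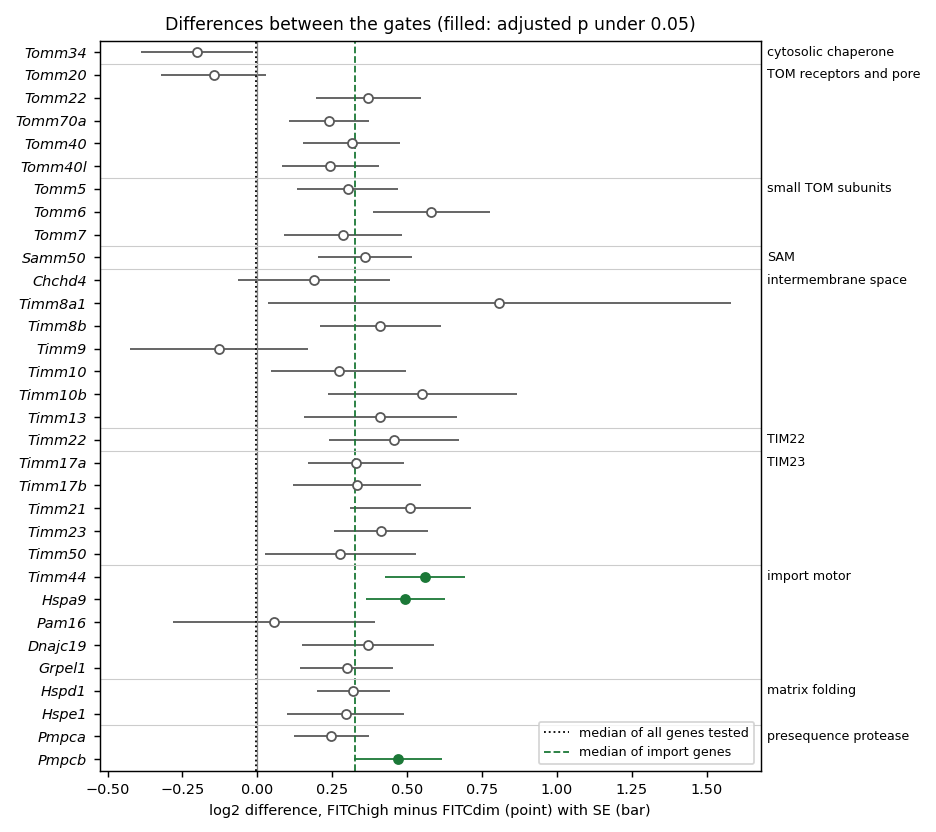
The log2 difference, FITChigh minus FITCdim, of each of the 32 tested import genes (points) with its SE (bars), grouped by role. The 3 filled points are Timm44, Hspa9 and Pmpcb, which passed the test, and the dashed line at 0.33 is the median of the import genes beside the dotted line at -0.01 for all genes tested. These are the deposited values, and the 3 calls are lost with a common total and with cardiomyocyte marker scaling.

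The TOM complex is the common entry gate, and 0 of its 8 tested members passed. Tomm20, a receptor for presequences, had 95.5, 96.2 and 75.9 adjusted read counts in FITChigh and 89.1, 111 and 95.9 in FITCdim. The gates overlapped and the log2 difference was -0.15 (SE 0.18, adjusted p = 0.65). Tomm70a, the receptor for carrier precursors brought by cytosolic chaperones, had 252, 275 and 255 against 223, 214 and 224, without overlap, at 0.24 (SE 0.13, adjusted p = 0.26). Tomm22, the central receptor, had 181, 258 and 171 against 167, 164 and 134, with all FITChigh values above and a wide spread between them (0.37, SE 0.17, adjusted p = 0.18). The ratio of Tomm20 to Tomm22, which no scaling of a library can change, was 0.527, 0.372 and 0.445 in FITChigh and 0.533, 0.675 and 0.716 in FITCdim. This ratio was picked after its values had been seen and was not tested.

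Tomm40, the beta-barrel pore, had 227, 248 and 182 adjusted read counts in FITChigh and 176, 201 and 150 in FITCdim. The ranges overlapped, with a log2 difference of 0.31 (SE 0.16, adjusted p = 0.23). The paralog Tomm40l was read about as often, at 196, 274 and 200 against 179, 211 and 171. The log2 ratio of Tomm40 to Tomm40l was -0.02 ± 0.21 and -0.09 ± 0.09 (SD, n = 3 each), a difference of 0.07 (exact two-sided permutation p = 0.8). Among the small subunits that stabilise the pore, Tomm6 had 81.2, 77.1 and 80.4 against 62.1, 54.4 and 43.7, did not overlap and came closest to the threshold, at 0.58 (SE 0.19, adjusted p = 0.053). It passed with robust limma (0.048), after quantile normalization (0.027) and with the replicate block (0.021). Tomm6 overlaps Tomm6os and Usp49 on the other strand and Gm21981 on its own strand, and how such reads were divided is not given in the sources used here. Tomm7 had 152, 179 and 102 against 132, 113 and 103, with overlap (0.29, SE 0.20), and Tomm5 stood at 0.30 (SE 0.17).

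Samm50, the core of the machinery that inserts beta-barrel proteins such as Tomm40 itself, had 515, 645 and 491 adjusted read counts in FITChigh and 419, 516 and 355 in FITCdim. One FITCdim library, replicate 2, reached into the FITChigh range. The log2 difference was 0.36 (SE 0.16, adjusted p = 0.14). It passed without that library (0.50, adjusted p = 0.048) and with the replicate block (adjusted p = 0.0083). Tomm34, a cytosolic co-chaperone that travels with precursors and is no part of the TOM complex, had 63.0, 58.9 and 65.4 against 76.1, 78.9 and 61.9. The gates overlapped at a log2 difference of -0.20 (SE 0.19, adjusted p = 0.53).

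In the intermembrane space, small TIM proteins shield carrier and beta-barrel precursors, and Chchd4 (the oxidoreductase Mia40) folds cysteine-rich proteins. Of 8 such members 7 were tested, 0 passed and the values of all 7 overlapped between the gates. Timm8b, the one with the highest level, had 158, 194 and 116 adjusted read counts in FITChigh and 116, 141 and 91.7 in FITCdim (0.41, SE 0.20, adjusted p = 0.20). Its X-linked paralog Timm8a1 was scarcely read, with 12.5, 7.52 and 0.391 against 3.78, 0.143 and 4.47, which rest on 19 reads in FITChigh and 10 in FITCdim. Its difference of 0.81 is the largest among the members and has the largest SE, 0.77. The other members were Timm10b at 0.55 (SE 0.31), which passed without FITCdim replicate 2 (0.91, adjusted p = 0.048), Timm13 at 0.41 (SE 0.26), Timm10 at 0.27 (SE 0.23), Chchd4 at 0.19 (SE 0.25) and Timm9 at -0.13 (SE 0.30).

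Timm9 and Timm10 form the hexamer that carries hydrophobic precursors across this space. The log2 ratio of Timm9 to Timm10 was -2.13, -2.23 and -2.10 in FITChigh and -1.57, -2.02 and -1.67 in FITCdim. The FITChigh values lay below all FITCdim values, by 0.40 on average, and the exact two-sided permutation p was 0.1, which is the lowest value possible with 3 libraries per gate, or 0.9 after adjustment over the 9 ratios computed. Timm9 overlaps the end of Tomm20l on the opposite strand, which held 1 read in all libraries. Timm22, the channel of the carrier translocase, had 59.2, 53.8 and 48.3 adjusted read counts against 37.4, 45.4 and 34.4, without overlap (0.46, SE 0.22, adjusted p = 0.18).

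Of the untested members, Timm8a2 was listed at 0 in all 6 libraries and Tomm20l had 1.34 adjusted read counts, 1 read, in FITChigh replicate 2 and 0 elsewhere. A count of 0 allows up to 3 reads, which is 1.82 to 4.61 adjusted read counts depending on the library, for counting error only.

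Libraries within a gate differed in a similar order across members. In FITChigh, replicate 2 was the highest of the 3 libraries in 22 of 32 members and replicate 3 the lowest in 24. In FITCdim, replicate 2 was the highest in 21 and replicate 3 the lowest in 20. The replicate numbers that led and trailed were thus the same in both gates, and a fit with these libraries paired is given at the end. The median over members, relative to the FITCdim mean on the log2 scale, was 0.35, 0.55 and 0.12 in the FITChigh libraries and 0.01, 0.14 and -0.17 in the FITCdim libraries.

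Beyond these 34 genes, 40 further genes of the import pathway or linked to it were examined in the same fit. They reach beyond import itself, with 11 genes of protein quality control among them. In FITChigh 4 were called higher, 0 lower and 36 did not pass, with a median log2 difference of 0.29, 36 above 0 and 17 without overlap and higher. Over all genes tested 2.51% were called higher, 49.4% were above 0 and 11.4% were higher without overlap. Letm1, an inner membrane protein known for ion exchange, had 513, 542 and 457 adjusted read counts in FITChigh and 363, 356 and 374 in FITCdim (0.46, SE 0.13, adjusted p = 0.020). Clpx, the unfoldase of the ClpXP protease, had 306, 319 and 276 against 225, 231 and 203 (0.45, SE 0.14, adjusted p = 0.034). Both showed a clear gap between the gates. Aifm1, which anchors Chchd4 at the inner membrane, had 224, 231 and 231 against 165, 179 and 161 (0.44, SE 0.14, adjusted p = 0.038). Dnajc15, a paralog of the motor protein Dnajc19, had 295, 371 and 249 against 189, 257 and 166, with overlap (0.58, SE 0.18, adjusted p = 0.038). The log2 ratio of Dnajc19 to Dnajc15 was -1.65 ± 0.12 and -1.44 ± 0.47 (SD, n = 3 each), a difference of -0.22 (exact two-sided permutation p = 0.6). The calls of these 4 genes were lost under the common total, as those of the members were. None of the 4 was called without FITChigh replicate 1, without FITChigh replicate 2 or without FITCdim replicate 1. Of the 40 further genes 1 was called higher without FITCdim replicate 3, where 2.3% of all genes were. After quantile normalization 1 was, beside 3.62% of all genes.

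By role, 1 of 5 partners of TIM23 and its motor was called higher, 1 of 2 genes of oxidation in the intermembrane space, 1 of 3 of inner membrane insertion and 1 of 11 of protein quality control. Over all genes tested 2.51% were called higher, and these few calls are given as a description. None was called among 3 partners of SAM, 3 genes listed with TIM22, 5 peptidases and 8 genes of cytosolic delivery. Quality control genes were above 0 in 11 of 11 cases, against 49.4% of all genes tested, with a median of 0.33, close to that of the members. Among those that did not pass, Romo1 stood at 0.74 (SE 0.25, adjusted p = 0.056) and Lonp1, the matrix protease, at 0.40 (SE 0.13, adjusted p = 0.055).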

How the data were processed

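Polyadenylated RNA was sequenced as strand-marked paired reads of 75 bp, per the labels' protocols. Per the submitters' processing notes, STAR 2.5, edgeR and mm10 were used. For the counter, the annotation, the use of strand and the settings, nothing was given in the sources used here. The deposited values are a signal, namely read counts that the authors brought to equal library size without dividing by gene length. Of 23410 lines 6 were garbled and left out. Columns were matched by sample title, and replicates are numbered in accession order. Nothing says that the libraries came from separate animals beyond the submitters' word for replicates, so each p-value reflects only how far these libraries spread, which may be technical.

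Whole reads were worked back from the values by undoing a quantile adjustment of negative binomial form (dispersion 0.0202). Per library 99.889 to 99.996% of values came out whole within 0.1, and the rounded reads gave back 100% of the deposited values. They served for depth, for the floor and for 1 alternative. Replicates of a gate differed beyond sampling noise (chi-square of 3.63 to 6.09 for each degree of freedom).

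Genes with at least 1 in at least 3 libraries entered limma 3.58.1 (R 4.3.3) on the log2 scale after adding 1 (trend, no block, two-sided, Benjamini-Hochberg over all genes tested, threshold 0.05). Fold changes on this scale understate those of low genes. For ratios within a library the permutation test was exact and two-sided, with 20 assignments of libraries to gates. Exon lengths and positions are from the basic set of GENCODE M21 on the same build, and overlaps from its full set. The members and lists were chosen with earlier results of these data known. Library values are given for members that passed, for the one with the most adjusted read counts in each role and for Hspd1, Hspe1, Hspa9, Tomm20, Tomm40, Timm23 and Samm50. Other members with library values were chosen after these were seen.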

Additional observations from a re-analysis of the deposited data

How the results depend on the processing

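With values as deposited 3 members and 4 further genes were called higher and none lower. Of 16 alternatives, Timm44 was called in 14 (adjusted p from 7.0e-04 to 0.86), Hspa9 in 11 (4.5e-04 to 0.87) and Pmpcb in 8 (0.0027 to 0.81). Under the common total 0 members and 0 further genes were called higher and 1 further gene lower, and the members' median was 0.12, with 0.317% of all genes called higher and 16.9% lower. Scaled to the cardiomyocyte markers, 0 members and 0 further genes were called higher, 2 members and 4 further genes lower, the median was -0.20, and Hspa9 stood at -0.031 and Pmpcb at -0.057, with 0.0619% of all genes called higher and 36.5% lower. The cause was not tested. Higher genes made up 15.6% of all calls as deposited, 1.84% with the common total, 0.169% with the markers and 27.8% after quantile normalization, where 2 members and 1 further gene were called higher. After quantile normalization 3.62% of all genes were called higher and 9.4% lower. Fits that left out 1 library called 1 to 4 members higher and 0 lower, 0 to 7 further genes higher and 0 to 1 lower, and gave medians of 0.23 to 0.48. Over all genes they called 0.523 to 2.67% higher and 9.31 to 13.1% lower. These fits have fewer samples. The members called were 1 without FITChigh replicate 1 and 2 without FITChigh replicate 2, FITCdim replicate 1 or FITCdim replicate 3.

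Titles of both gates share the tags 1-2 and 3-4, whose meaning is not given, and 1 library of each gate has no tag. Deviations of same-tag libraries correlated at 0.125 and 0.175 and those of the untagged libraries at 0.071, and each library correlated best with its own partner, a hint from the data and not the design. With these 3 pairs as a replicate block 11 members were called higher (Hspd1, Samm50, Timm17a, Timm23, Timm8b, Tomm22, Tomm40 and Tomm6 besides the 3 above) and 0 lower. In that fit 16 further genes were called higher and 1 lower, with 8.24% of all genes called higher and 16% lower. Limma-voom on recovered reads, chosen after seeing the data, called the same 3 members. The planned count test of recovered reads was not run. The 9 ratios moved by less than the SD pooled over both gates in all 72 settings tried, though all but Timm17a to Timm17b and Timm8a1 to Timm8b moved by more than the smaller SD of the gates in at least 1. Reads limit Timm8a1, Timm9 and Pam16 the most.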
